A study of Mus musculus with 6 samples.

Results

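The genes examined here encode the TOM and TIM translocases, the machines that carry nuclear-encoded proteins into mitochondria. They were taken as every gene whose symbol starts with Timm or Tomm followed by a number, which gave 25 of the 21741 gene symbols in the deposited tables. RNA-seq had been run on mouse primary cardiomyocytes, heart muscle cells taken from tissue and cultured. In 3 libraries, Adv-ABHD11, the cells had received an adenovirus for ABHD11 and the label gave the genotype as ABHD11 overexpression, and in the other 3, Adv-NC, they had received the control virus and the genotype was given as WT. All cells were then kept in hypoxia for 24 h, and all libraries carried batch number 1. The sources used here do not state the strain, age or number of the animals, the viral dose, or whether replicates came from separate cultures. The p-values therefore reflect the spread among these libraries alone, and that spread may be technical.

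Most mitochondrial proteins are made in the cytosol and enter through the TOM complex of the outer membrane, in which Tomm20, Tomm22 and Tomm70a act as receptors, Tomm40 forms the pore and the small proteins Tomm5, Tomm6 and Tomm7 shape the complex. Proteins with a cleavable presequence then pass the inner membrane through TIM23, a channel of Timm23 with Timm17a or Timm17b, and a motor in the matrix pulls them in. Carrier proteins are escorted across the intermembrane space by hexamers of small Tim proteins and are inserted by TIM22. Heart muscle is dense in mitochondria and depends on this route for its respiratory chain.

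Library totals ran from 16292756 to 19526874 counts with Adv-ABHD11 and from 18219251 to 20338700 with Adv-NC. The mouse gene Abhd11 stood at 38.9 ± 3.25 CPM with Adv-ABHD11 and 33.5 ± 1.87 CPM with Adv-NC (mean ± SD, n = 3 each; edgeR adjusted p = 0.0764). The species of the transgene is not stated, so its transcripts may be missing from those counts, and the overexpression was not checked by them. Levels here are CPM, counts scaled to library size, after the TMM scaling of edgeR. The cardiomyocyte markers were all detected: 12 of 12 were higher with Adv-ABHD11, and their summed level was 33254 to 35157 CPM, against 19247 to 21191 CPM with Adv-NC. Markers of other cells also differed, beside 29.9% higher and 29.4% lower over all tested genes. Endothelial markers were higher in 7 of 8 (582 to 637 CPM summed, against 378 to 414), smooth muscle and pericyte markers higher in 6 and lower in 1 of 8 (4076 to 4595 against 2912 to 3424), fibroblast markers higher in 2 and lower in 5 of 8 (8143 to 11099 against 10398 to 12985) and epicardial markers higher in 1 and lower in 6 of 8 (123 to 128 against 213 to 227). Leukocyte markers were higher in 1 and lower in 2 of 7 tested (57.5 to 63.6 against 61.8 to 80.0). Lung epithelial markers were higher in 7 of 7 tested, at 128 to 137 CPM against 0.216 to 0.782, with Scgb1a1, Sftpc, Sftpa1, Sftpd and Scgb3a2 at 0 counts in every Adv-NC library. Red cell markers were higher in 4 of 4 tested (22.8 to 26.0 against 0.313 to 0.647), with Hba-a1, Alas2 and Slc4a1 at 0 in the Adv-NC libraries. Transcripts of mitochondrial DNA took 4.99% to 7.67% of counts with Adv-ABHD11 and 2.36% to 2.55% with Adv-NC. The part of these differences in the translocase results was not tested, and in bulk RNA fewer cells of a type cannot be told apart from less RNA per cell.

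The translocase genes moved little and in both directions. Of the 25, 23 passed the filter on low counts. With Adv-ABHD11, 5 were higher (Tomm40l, Timm21, Tomm7, Timm17b and Timm8b) and 6 were lower (Timm50, Timm8a1, Tomm40, Timm22, Timm17a and Tomm20) at an adjusted p under 0.05, while 12 did not pass. The count of higher members was 3 without Adv-ABHD11 replicate 2 or Adv-NC replicate 3, 2 without Adv-NC replicate 1, and 3, with 9 lower, after the trend on GC content and length was removed. Over all 12797 tested genes, 29.9% were higher and 29.4% lower, 59.3% in all, beside 47.8% of members. With the replicate number added to the fit as a block, 6 members were higher and 8 lower. Over all tested genes that fit called 3933 higher and 3907 lower. The difference in share between members and all tested genes was not tested. The arms did not overlap for 11 of the 23 members, against 63.2% of all tested genes. The largest member change was 0.69 on the log2 scale, a size that 29.6% of all tested genes exceeded, and no member reached a 2-fold change, which 15.9% of all tested genes did. The median log2 fold change of the members was -0.13, against 0.02 over all tested genes. Members were well covered, with a median of 55.4 CPM against 20.4 CPM over all tested genes, and a median standard error of 0.107 against 0.125. Their transcripts were shorter, with a median of 1176 bases against 2228, at nearly the same GC content of 51.2% against 51.1%. The remaining members, Timm8a2 and Tomm20l, had 0 counts in all 6 libraries, which allows at most 0.184 CPM in the shallowest one.

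**Figure D1:**
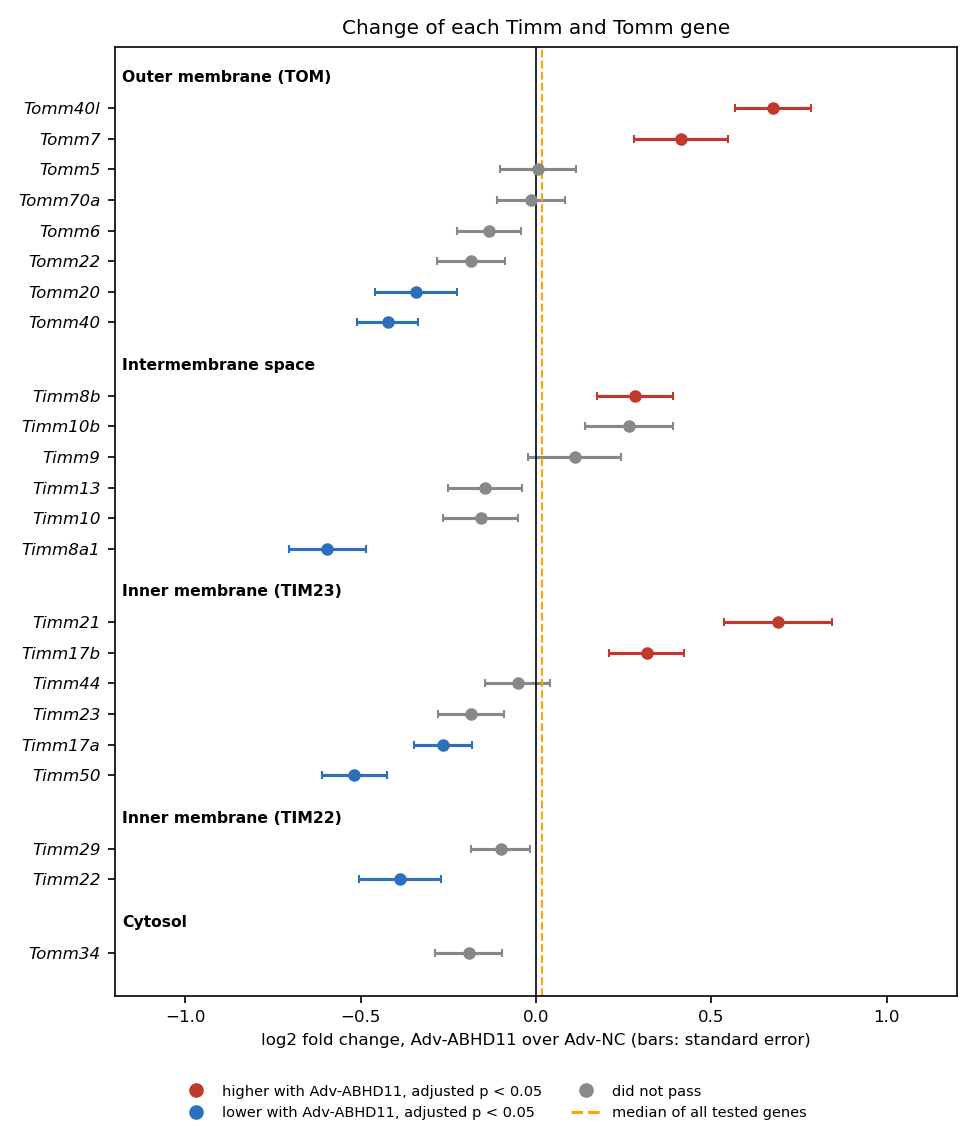
Log2 fold change of each tested Timm and Tomm gene (x axis, Adv-ABHD11 over Adv-NC, bars are standard errors) by place in the organelle. Red and blue points passed an adjusted p of 0.05, and each compartment except the TIM22 pair and the cytosolic Tomm34 holds both colours, between -0.59 for Timm8a1 and 0.69 for Timm21.

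In the outer membrane, 2 of 8 tested members were higher and 2 lower, beside 29.9% and 29.4% of all tested genes. The median log2 fold change was -0.07. Tomm40l, a paralog of the pore protein (chromosome 1, 171216011 to 171222514, minus strand, GRCm38), had 110.2, 134 and 100.5 CPM with Adv-ABHD11, against 66.7, 80.9 and 68.1 CPM with Adv-NC. Every Adv-ABHD11 library lay above every Adv-NC library. The log2 fold change was 0.68 ± 0.109 (SE, edgeR adjusted p = 4.14e-05). The gene overlaps Nr1i3 on the opposite strand over 4691 bases, and Nr1i3 held at most 2.41 counts in a library. No result for Tomm40l changed call under the 14 alternative settings.

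Tomm40, which lines the import pore itself (chromosome 7, 19701313 to 19715438, minus strand), went the other way. It had 76.1, 73.1 and 76.9 CPM with Adv-ABHD11, against 94.3, 102 and 107 CPM with Adv-NC, without overlap (log2 fold change -0.42 ± 0.0862, edgeR adjusted p = 0.000407). With the GC and length trend removed it was at -0.26 (edgeR adjusted p = 0.0115). Tomm7, a small subunit that affects the stability of the complex (chromosome 5, 23838944 to 23844161, minus strand), had 31.9, 36.0 and 28.1 CPM with Adv-ABHD11, against 19.7, 29.2 and 23.0 CPM with Adv-NC. Its lowest Adv-ABHD11 library fell below the highest Adv-NC library, and the log2 fold change was 0.41 ± 0.134 (edgeR adjusted p = 0.0130). That call was lost without Adv-NC replicate 1 (edgeR adjusted p = 0.0510) or 3 (0.0560), and with the GC and length trend removed (0.138), and over the 14 alternative settings the adjusted p ran from 0.00171 to 0.138.

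Tomm20, the receptor that binds presequences (chromosome 8, 126930667 to 126945844, minus strand), gave the highest counts of the family. Its level was 186, 261 and 195 CPM with Adv-ABHD11, against 244, 298 and 272 CPM with Adv-NC. Replicate 2 of Adv-ABHD11 reached into the Adv-NC range, and the log2 fold change was -0.34 ± 0.117 (edgeR adjusted p = 0.0177). The call was lost without Adv-NC replicate 2 (edgeR adjusted p = 0.0680), without Adv-ABHD11 replicate 1 (0.0809) or 3 (0.0814) and with upper-quartile scaling (0.0878), within a range of 0.000129 to 0.0878 over the settings. The receptors Tomm22 at -0.18 ± 0.0980 and Tomm70a at -0.02 ± 0.0969, and the small subunits Tomm6 at -0.13 ± 0.0918 and Tomm5 at 0.00 ± 0.108, did not pass (edgeR adjusted p = 0.114 to 0.973). Tomm22 passed in 5 of the 14 settings, among them the one without Adv-ABHD11 replicate 2 (edgeR adjusted p = 0.0242) and the one without Adv-NC replicate 1 (0.0465), within a range of 0.00727 to 0.490. Tomm70a also passed, at -0.39, once the GC and length trend was removed (edgeR adjusted p = 0.00113, range 0.000441 to 0.982). Tomm6 and the gene Gm21981 share 1648 bases on the same strand, and the deposited values of both were fractional in all 6 libraries, so their split is uncertain. Tomm34, which matches by symbol but encodes a cytosolic co-chaperone, stood at 37.5 ± 1.18 CPM with Adv-ABHD11 and 42.9 ± 3.16 CPM with Adv-NC (SD, n = 3 each; log2 fold change -0.19 ± 0.0961, edgeR adjusted p = 0.0950). It shares 848 bases with Stk4 on the opposite strand.

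**Figure D2:**
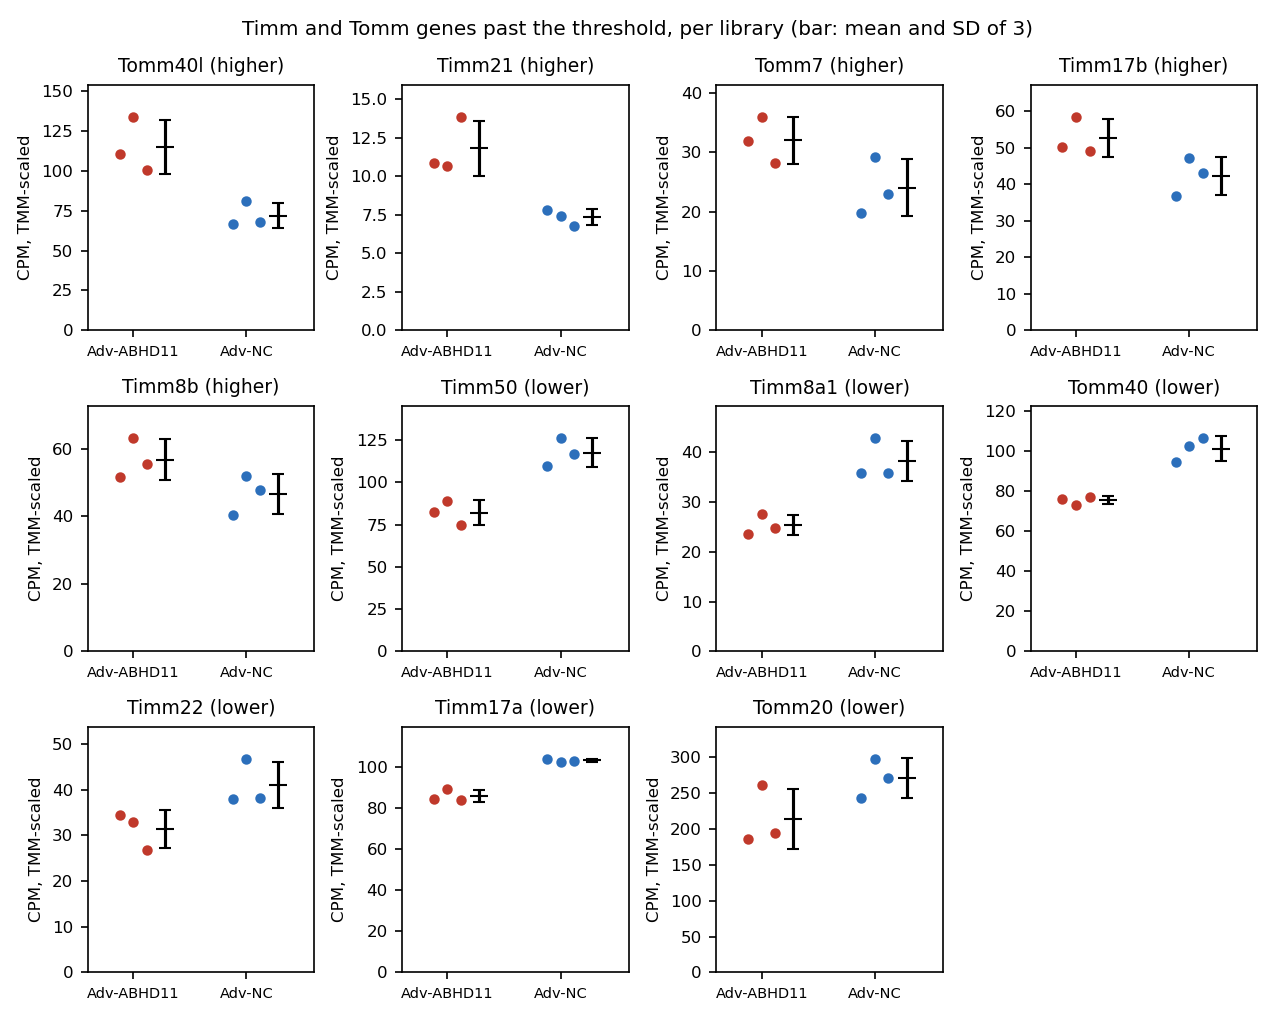
Level in each library (y axis, TMM-scaled CPM from 0) of the 11 Timm and Tomm genes that passed the threshold, with Adv-ABHD11 left of Adv-NC and the mean ± SD of 3 libraries beside the points. The arms are apart for 8 of the 11, and touch for Tomm7, Timm8b and Tomm20.

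Promoter sequences are shown for Tomm20, Timm8b and Timm8a1: among the called members with an entry, Tomm20 and Timm8b were the 2 that held any of the words searched, and Timm8a1 is the paralog of Timm8b that moved the other way. The RefSeq windows (GRCm38.p6) run from 250 bases before to 50 bases after a gene's RefSeq start. The gene coordinates given in this text come from GENCODE, whose starts can differ. By those coordinates the Tomm20 window lies wholly before its gene, and most of the Timm8a1 window lies inside its gene. Of the 25 members, 22 had at least 1 window. Tomm40l, Timm21 and Tomm7, all called higher, had none and were not searched. The words were GCGCANGCG, from the binding site of the respiratory gene activator NRF1, TGACNNNGC from the antioxidant response element, TGATGNAA from the element of the stress factor ATF4 and TCAAGGTCA from that of the estrogen-related receptors. Both strands were searched, N is any base, and no matches overlapped. Capitals mark a match.
Tomm20, chr8:126945872-126946171, minus strand: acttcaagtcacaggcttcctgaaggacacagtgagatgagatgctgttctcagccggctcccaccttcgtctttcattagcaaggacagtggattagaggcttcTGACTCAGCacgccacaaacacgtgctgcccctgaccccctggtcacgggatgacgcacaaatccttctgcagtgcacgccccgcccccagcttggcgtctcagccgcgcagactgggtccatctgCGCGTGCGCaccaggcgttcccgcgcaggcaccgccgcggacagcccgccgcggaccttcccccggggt
Timm8b, chr9:50603651-50603950, plus strand: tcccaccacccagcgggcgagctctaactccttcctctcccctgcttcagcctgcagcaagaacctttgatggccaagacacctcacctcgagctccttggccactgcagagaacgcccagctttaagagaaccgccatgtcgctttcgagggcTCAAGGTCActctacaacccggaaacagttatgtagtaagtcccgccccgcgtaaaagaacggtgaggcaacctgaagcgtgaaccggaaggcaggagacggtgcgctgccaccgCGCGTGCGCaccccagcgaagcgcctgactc
Timm8a1, chrX:134541621-134541920, minus strand: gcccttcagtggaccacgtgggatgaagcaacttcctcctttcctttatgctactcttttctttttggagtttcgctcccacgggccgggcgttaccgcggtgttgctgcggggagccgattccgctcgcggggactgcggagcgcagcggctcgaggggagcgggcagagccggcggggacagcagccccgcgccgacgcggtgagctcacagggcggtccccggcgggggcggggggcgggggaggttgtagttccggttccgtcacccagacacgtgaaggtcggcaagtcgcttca

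The window of Timm8b held TCAAGGTCA at bases 155 to 163, counted from the 5′ end, a word found in 0.423% of 32851 windows of the same length, and GCGCANGCG at bases 270 to 278, found in 6.25%. The window of Tomm20 held GCGCANGCG at bases 232 to 240 and TGACNNNGC, found in 12.4% of all windows, at bases 106 to 114. No word occurred in the window of Timm8a1, most of which lies inside the gene by its GENCODE coordinates. Among the 22 members with a window, 3 held GCGCANGCG (Timm13, Timm8b and Tomm20), 1 each TGACNNNGC and TCAAGGTCA, and none TGATGNAA, which 3.97% of all windows held.

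In the intermembrane space, 1 of 6 tested small Tims was higher and 1 lower, beside 29.9% and 29.4% of all tested genes. The median log2 fold change was -0.02. Both called genes belong to the Timm8 pair, whose protein products each form a hexamer with Timm13 that chaperones membrane proteins. Timm8a1, the mouse counterpart of the human gene mutated in deafness-dystonia syndrome (chromosome X, 134537256 to 134541865, minus strand), had 23.6, 27.5 and 24.7 CPM with Adv-ABHD11. With Adv-NC it had 35.8, 42.9 and 35.8 CPM. All 3 Adv-ABHD11 libraries were below all Adv-NC libraries, with a difference of -0.59 ± 0.109 on the log2 scale (edgeR adjusted p = 0.000143), the most negative change of the family. Timm8b (chromosome 9, 50603910 to 50605320, plus strand) had 51.7, 63.4 and 55.5 CPM with Adv-ABHD11, against 40.4, 52.0 and 47.9 CPM with Adv-NC. The lowest Adv-ABHD11 library was just under the highest Adv-NC library, and the log2 fold change was 0.28 ± 0.108 (edgeR adjusted p = 0.0322).

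The Timm8b call was lost in 6 of the 14 settings, more than any other member's. It was lost without Adv-NC replicate 1 (edgeR adjusted p = 0.117) or 3 (0.0665), without Adv-ABHD11 replicate 2 (0.113) or 3 (0.0583) and with the GC and length trend removed (0.184), within a range of 0.00507 to 0.184 over the settings. The partner of both, Timm13, had 54.5 ± 6.53 CPM with Adv-ABHD11 and 60.2 ± 6.10 CPM with Adv-NC (SD, n = 3 each; log2 fold change -0.15 ± 0.106) and did not pass. Timm9 and Timm10, which together form the main carrier chaperone, were at log2 fold changes of 0.11 ± 0.132 and -0.16 ± 0.106 and did not pass, though Timm10 did without Adv-ABHD11 replicate 2 (edgeR adjusted p = 0.0327, range 0.0327 to 0.686). Timm10b, the small Tim that docks on TIM22, was at 0.27 ± 0.125 (edgeR adjusted p = 0.0770) and passed in 5 of the 14 settings, among them upper-quartile scaling (0.0168) and the one without Adv-NC replicate 2 (0.0321), within a range of 0.0168 to 0.285. Timm10b shares 3086 bases on the same strand with Gm45799, and both had fractional deposited values in all 6 libraries, so this split is uncertain too. On the opposite strand Timm10b shares 361 bases with Arfip2, which held 897 to 1285 counts in a library.

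In the inner membrane, Timm21 and Timm17b were higher and Timm50, Timm17a and Timm22 lower. Of 6 TIM23 genes 2 were higher and 2 lower, and of the 2 TIM22 genes 1 was lower. Over all tested genes 29.9% were higher and 29.4% lower. Timm21, a TIM23 subunit that contacts the TOM complex (chromosome 18, 84946191 to 84951524, minus strand), had 10.9, 10.7 and 13.9 CPM with Adv-ABHD11, against 7.82, 7.40 and 6.77 CPM with Adv-NC. Its arms were apart, higher by 0.69 ± 0.153 on the log2 scale (edgeR adjusted p = 0.000847), and by 0.44 with the GC and length trend removed (0.00851). Fbxo15 overlaps Timm21 on the opposite strand over 5334 bases and held at most 3 counts in a library. Timm50, the receptor that takes presequences from the TOM complex (chromosome 7, 28305516 to 28312072, minus strand), had 82.6, 89.1 and 74.5 CPM with Adv-ABHD11, against 109, 126 and 116 CPM with Adv-NC. Its arms did not overlap either, at -0.52 ± 0.0935 (edgeR adjusted p = 0.000127).

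The channel subunit Timm17 exists in mammals as Timm17a, which is degraded under stress, and Timm17b. Timm17a (chromosome 1, 135295213 to 135313778, minus strand) had 84.5, 89.4 and 84.3 CPM with Adv-ABHD11, against 104, 103 and 103 CPM with Adv-NC. The arms were apart although the change was only -0.26 ± 0.0826 (edgeR adjusted p = 0.0105), and the call was lost with upper-quartile scaling (-0.16, adjusted p = 0.0933; range 8.76e-05 to 0.0933). With the GC and length trend removed it was at -0.42. Timm17b (chromosome X, 7899357 to 7908351, plus strand) had 50.4, 58.6 and 49.1 CPM with Adv-ABHD11, against 36.8, 47.2 and 43.1 CPM with Adv-NC. It was higher by 0.32 ± 0.108 (edgeR adjusted p = 0.0177), a call lost without Adv-NC replicate 1 (0.0658) or Adv-ABHD11 replicate 2 (0.0672), within a range of 0.000225 to 0.0672. The channel protein Timm23 at -0.19 ± 0.0930 (edgeR adjusted p = 0.0957) and the motor anchor Timm44 at -0.05 ± 0.0921 (0.645) did not pass. Timm23 passed in 5 of the 14 settings, among them the ones without Adv-ABHD11 replicate 2 (edgeR adjusted p = 0.0245) and without Adv-NC replicate 1 (0.0482), within a range of 0.0160 to 0.459.

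Of the carrier translocase, the channel-forming Timm22 (chromosome 11, 76406952 to 76416292, plus strand) had 34.4, 33.0 and 26.8 CPM with Adv-ABHD11, against 38.0, 46.8 and 38.1 CPM with Adv-NC. Its arms were apart with a change of -0.39 ± 0.117 on the log2 scale (edgeR adjusted p = 0.00844). The call was lost without Adv-NC replicate 2 (0.0542) or Adv-ABHD11 replicate 3 (0.0643), within a range of 0.000253 to 0.0643. Timm29, a TIM22 subunit of multicellular animals, had 68.5 ± 1.21 CPM with Adv-ABHD11 and 73.4 ± 1.70 CPM with Adv-NC (SD, n = 3 each). That difference did not pass (log2 fold change -0.10 ± 0.0839, edgeR adjusted p = 0.315), although the arms did not overlap.

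For the 3 pairs of paralogs called in opposite directions, the ratio of their counts within a library restates the difference without any scaling between libraries. The ratios were added after the calls were seen. Tomm40l over Tomm40 was 1.45, 1.83 and 1.31 with Adv-ABHD11, against 0.707, 0.792 and 0.639 with Adv-NC, a 2.13-fold difference. Tomm40l thus had more counts than Tomm40 in every Adv-ABHD11 library and fewer in every Adv-NC library. Per kilobase of transcript the ratio averaged 0.876 with Adv-ABHD11 and 0.408 with Adv-NC.

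For the small Tims, Timm8b over Timm8a1 was 2.19, 2.31 and 2.25 with Adv-ABHD11, against 1.13, 1.21 and 1.34 with Adv-NC, 1.84-fold apart. Timm17b over Timm17a was 0.596, 0.656 and 0.583 with Adv-ABHD11, against 0.353, 0.459 and 0.418 with Adv-NC, 1.5-fold apart. In all 3 pairs the arms did not overlap. A two-sided exact permutation test gave p = 0.1 for each pair, the smallest that 3 libraries against 3 allow, and 0.1 after Benjamini-Hochberg adjustment over the 3 pairs. The pairs were picked by their opposite calls in the same libraries, so this test adds no support to those calls. Tomm20 with Tomm20l, and Timm8a2 with its relatives, gave no ratio because Tomm20l and Timm8a2 had no counts.

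**Figure D3:**
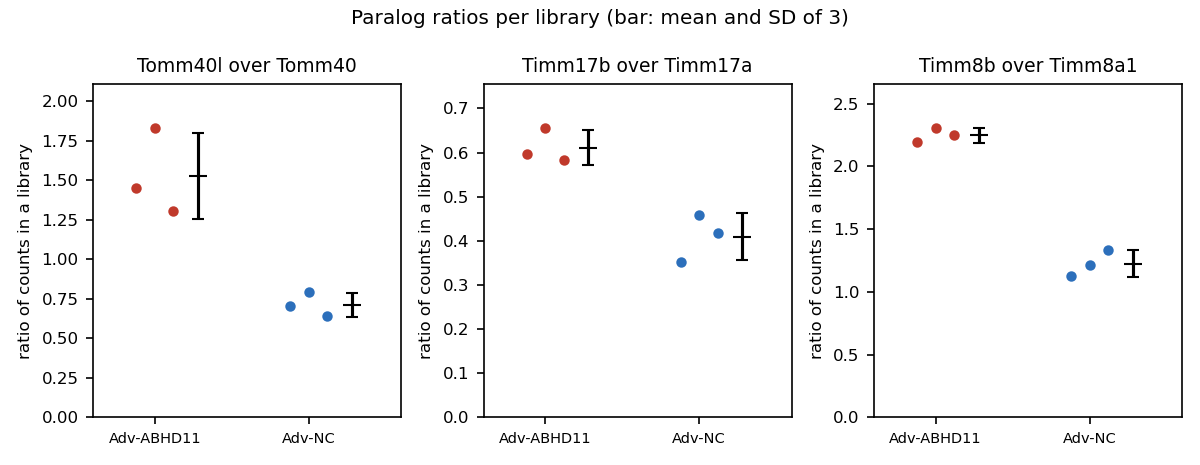
Ratio of the counts of 2 paralogs in each library (y axis, from 0), with Adv-ABHD11 left of Adv-NC and the mean ± SD of 3 libraries beside the points. The Adv-ABHD11 libraries lie above all Adv-NC libraries in each panel, with means of 1.53 and 0.713 for Tomm40l over Tomm40.

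By compartment, the TMM-scaled summed level separated the arms in the inner membrane alone, and no longer did once Timm10b was counted there. The sums were not taken under another scaling. The 8 inner membrane genes summed to 506, 554 and 507 CPM with Adv-ABHD11, against 566, 625 and 595 CPM with Adv-NC, and their median log2 fold change was -0.14. With Timm10b counted among them, a setting added after the values were seen, the sums were 535.9, 588.1 and 535.0 CPM with Adv-ABHD11, against 587.3, 654.7 and 622.2 CPM with Adv-NC, which overlapped, and the median was -0.10. The 9 outer membrane genes summed to 674, 812 and 668 CPM with Adv-ABHD11, against 710.2, 825 and 762 CPM with Adv-NC, which overlapped. The 7 intermembrane space genes summed to 215, 256 and 213 CPM with Adv-ABHD11, against 213, 259 and 237 CPM with Adv-NC, and overlapped as well. Sums and medians carry no test here, and the medians of the outer membrane (0.03) and the intermembrane space (0.09) were positive with upper-quartile scaling and that of the inner membrane was -0.04. Under that scaling the median of all tested genes was 0.12.

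**Figure D4:**
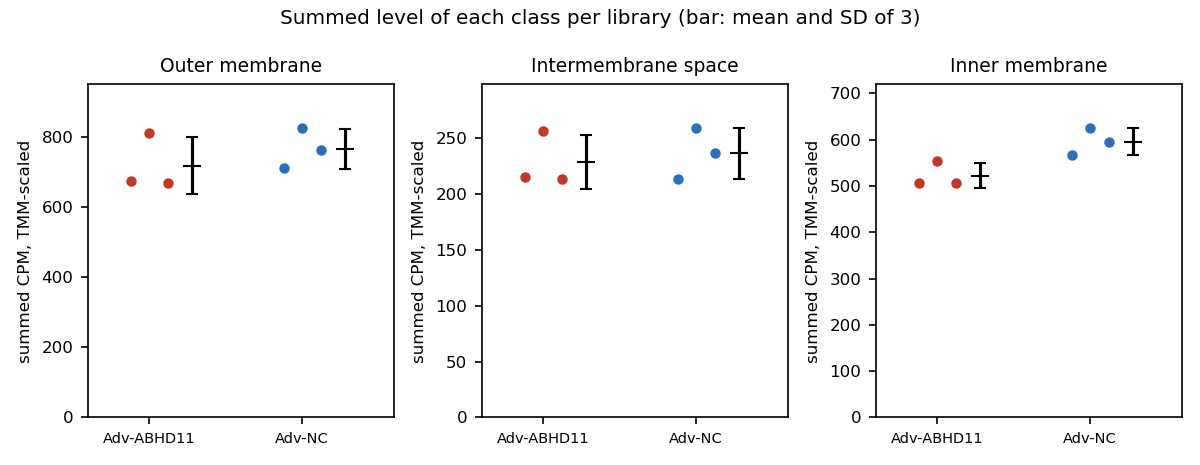
Summed TMM-scaled CPM of the outer membrane, intermembrane space and inner membrane genes in each library (y axis, from 0), with Adv-ABHD11 left of Adv-NC and the mean ± SD of 3 libraries beside the points. The inner membrane sums are 506 to 554 CPM with Adv-ABHD11 and 566 to 625 CPM with Adv-NC, while the other 2 panels overlap.

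Levels per kilobase, taken over the median length of a gene's coding transcripts, spread widely within each complex. Timm23 was the most abundant, at 183 CPM per kilobase with Adv-ABHD11 and 208 with Adv-NC, and its channel partner Timm17a stood at 135 with Adv-ABHD11 and 163 with Adv-NC. Tomm5 was the highest of the outer membrane, at 143 with Adv-ABHD11 and 142 with Adv-NC. In the intermembrane space Timm8b was at 109.8 with Adv-ABHD11 and 90.2 with Adv-NC, and Timm13 at 100.5 with Adv-ABHD11 and 111 with Adv-NC. At the low end, Timm21 was at 4.88 CPM per kilobase with Adv-ABHD11 and 3.03 with Adv-NC, and the receptor Tomm70a, with a long transcript, at 9.23 with Adv-ABHD11 and 9.34 with Adv-NC. Within each arm many members shared their highest library: 16 of 23 were highest in replicate 2 of Adv-ABHD11 and 15 of 23 in replicate 2 of Adv-NC, against 38.3% and 34.3% of all tested genes. In each arm replicate 2 also had the highest share of mitochondrial DNA transcripts, 7.67% with Adv-ABHD11 and 2.55% with Adv-NC. The part of that in these levels was not tested.

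The other genes of the import pathway also moved in both directions. Of 26 partner genes, all tested, 8 were higher and 8 lower with Adv-ABHD11, 61.5% called against 59.3% of all tested genes, with a median log2 fold change of 0.01. Of 7 genes of outer membrane sorting 4 were lower and 1 higher, beside 29.4% lower and 29.9% higher over all tested genes, and 2 of the 4 lower calls did not hold in every setting. Mtx1, a metaxin of the sorting complex, stood at 34.3 ± 3.80 CPM with Adv-ABHD11 and 53.6 ± 5.90 CPM with Adv-NC (SD, n = 3 each; log2 fold change -0.64 ± 0.108, edgeR adjusted p = 6.1e-05). Its partner Mtx2 was higher by 0.32 ± 0.0944, but by 0.11 with the GC and length trend removed (edgeR adjusted p = 0.363). Dnajc11 (-0.31 ± 0.0844) and the insertase relative Mtch1 (-0.27 ± 0.0977) were lower, the last a call lost in 6 of the 14 settings. The fourth lower gene was Samm50, which builds barrel proteins into the membrane and is named after its values were seen (-0.23 ± 0.0872, edgeR adjusted p = 0.0322), lost in 4 settings.

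In the import motor, both nucleotide exchange factors were lower and the called J proteins higher. Grpel1, which resets the motor chaperone, had 92.1 ± 9.10 CPM with Adv-ABHD11 and 127 ± 13.1 CPM with Adv-NC (log2 fold change -0.47 ± 0.0990, edgeR adjusted p = 0.000581). Its paralog Grpel2 was at -0.33 ± 0.138, a call lost in 9 of the 14 settings. The J proteins Dnajc15 and Dnajc19, which stimulate the motor chaperone or hold that role by homology, were higher at 0.56 ± 0.104 and 0.41 ± 0.108. With the GC and length trend removed they were at 0.30 (edgeR adjusted p = 0.0602) and 0.20 (0.106), and neither passed. The motor chaperone Hspa9, named after its values were seen, had 548 ± 12.7 CPM with Adv-ABHD11 and 599 ± 35.1 CPM with Adv-NC and did not pass (edgeR adjusted p = 0.223), but was lower with the GC and length trend removed (0.00666, range 0.00454 to 0.841). The TIM22 subunit Agk (-0.33 ± 0.113) and Chchd4, the oxidoreductase that folds the small Tims in the intermembrane space (-0.37 ± 0.119), were lower.

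Among the processing peptidases, which trim proteins once they are inside, 4 of 6 genes were higher, beside 29.9% of all tested genes, and the other 2 did not pass. With the GC and length trend removed 2 of the 4 calls were lost. Mipep, the intermediate peptidase, stood at 49.2 ± 3.28 CPM with Adv-ABHD11 and 29.5 ± 2.56 CPM with Adv-NC (log2 fold change 0.74 ± 0.101, edgeR adjusted p = 6.52e-06). Pmpcb, the catalytic subunit that removes presequences, was at 0.36 ± 0.0923. Immp1l was at 0.48 ± 0.121, and at 0.12 with that trend removed (edgeR adjusted p = 0.322). Xpnpep3 was at 0.34 ± 0.141, and at 0.15 with that trend removed (0.362), a call lost in 9 of the 14 settings. Oxa1l, which inserts proteins into the inner membrane from the matrix, had 153 ± 9.66 CPM with Adv-ABHD11 and 109 ± 3.21 CPM with Adv-NC (0.48 ± 0.0855, edgeR adjusted p = 0.000101). With upper-quartile scaling 10 partners were higher and 3 lower, and 5 instead of 8 were lower without Adv-NC replicate 3 or without Adv-ABHD11 replicate 1 or 3. With the GC and length trend removed 5 were higher and 9 lower. Mipep, Oxa1l, Pmpcb, Mtx1, Grpel1 and Dnajc11 passed in the same direction in all 14 settings, and each of the other 10 called partners lost its call in 1 to 9 of them.

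**Figure D5:**
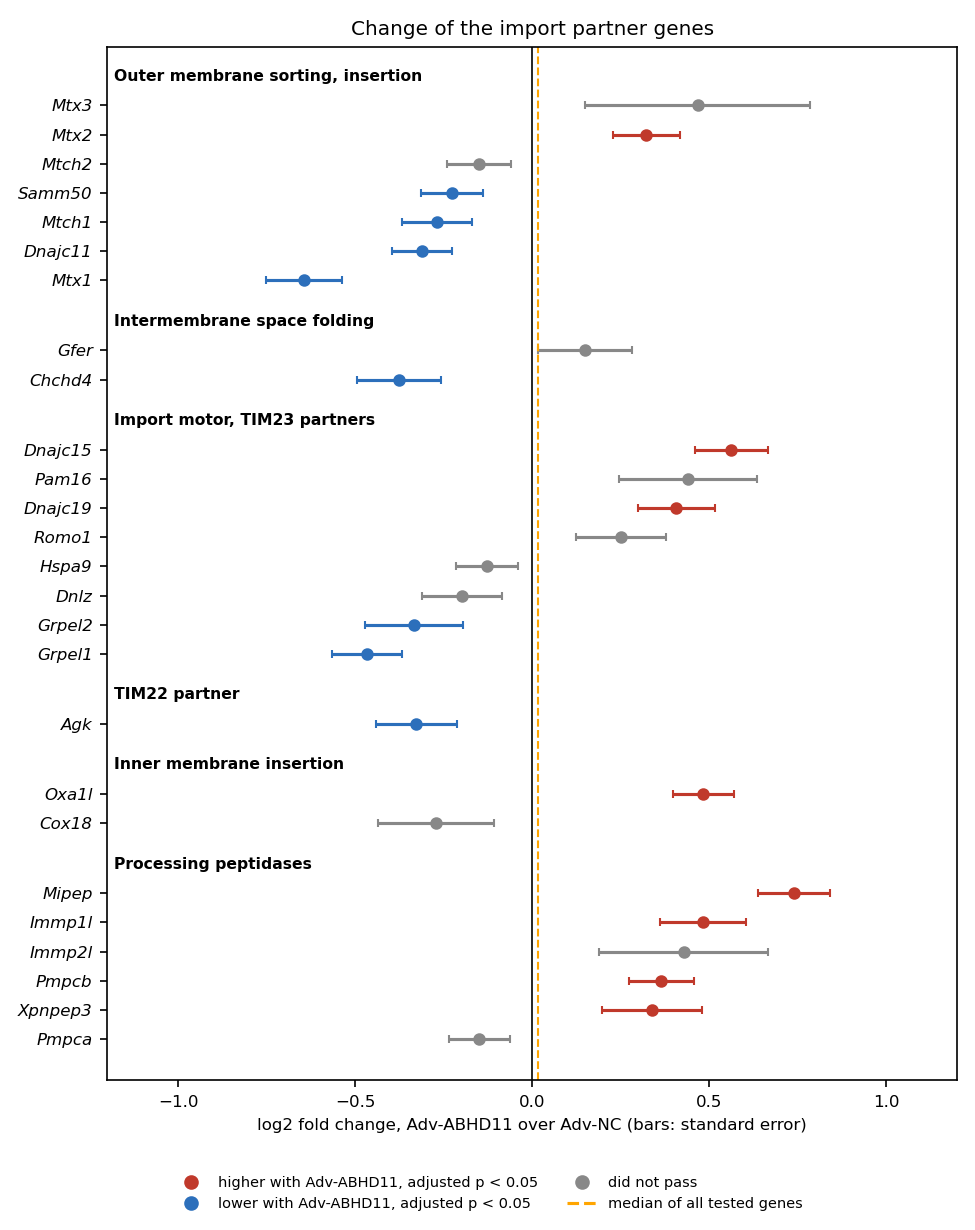
Log2 fold change of the 26 partner genes of protein import (x axis, Adv-ABHD11 over Adv-NC, bars are standard errors), grouped by step. The 4 called processing peptidase genes lie to the right of 0, up to 0.74 for Mipep, and 4 called genes of outer membrane sorting lie to the left, down to -0.64 for Mtx1.

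Beside these, 4 of 7 markers of mitochondrial abundance were higher with Adv-ABHD11, against 29.9% of all tested genes, and the other 3 did not pass. Their summed level was 5042, 5427 and 4877 CPM with Adv-ABHD11, against 3929, 4141 and 4009 CPM with Adv-NC. The whole translocase family summed to 1434, 1658 and 1426 CPM with Adv-ABHD11, against 1529, 1754 and 1639 CPM with Adv-NC. The summed abundance markers were apart between the arms and the summed translocases overlapped, and the difference between these 2 sums was not tested.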

How the data were processed

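The deposited tables hold, per library and gene symbol, an expected count, which is an estimate not scaled to library size. The submitters' processing notes named Trimmomatic 0.39, HISAT2, RSEM and DESeq2 and the build mm10, without their roles. The sources used here state neither annotation release nor strandedness, so reads of genes that overlap on opposite strands cannot be told apart. Expected counts were rounded, and the 22 rows that repeated a symbol were kept as rows of their own. The arms were compared across all genes with edgeR 4.0.16 in R 4.3.3 (filterByExpr with a minimum count of 10 and total of 15, TMM, quasi-likelihood F test, Benjamini-Hochberg adjustment over 12797 genes, threshold 0.05), with no block. Standard errors are the log2 fold change over the square root of F. The fits were run on simulated counts in which few genes changed, as many up as down. In these data 59.3% of tested genes were called, so that run does not test the scaling used here. Coordinates, transcript lengths (median over coding transcripts) and GC content came from GENCODE M21 on GRCm38, which held all 25 members. Alternatives were DESeq2 1.42.0, other scalings and filters, the replicate block, removal of each library's GC and length trend, and leaving out each library. Limits of counts of 0 (3 counts) cover counting error only. Members, classes and lists were chosen with earlier results of these data known. Every tested member was named, and partner genes past the threshold up to 4 per list.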

Additional observations from a re-analysis of the deposited data

How the results depend on the processing

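Of the 11 called members, 5 (Tomm40l, Tomm40, Timm21, Timm50 and Timm8a1) kept direction and call under all 14 alternative settings. Leaving out 1 library in turn gave 2 to 6 members higher and 4 to 9 lower, with 3 higher without Adv-ABHD11 replicate 2 or Adv-NC replicate 3 and 2 without Adv-NC replicate 1. It gave 5 to 7 partners lower, class medians of -0.136 to -0.0689 (outer membrane), -0.0811 to 0.0318 (intermembrane space, positive without Adv-ABHD11 replicate 3) and -0.178 to -0.128 (inner membrane), and paralog differences of 0.952 to 1.2 (Tomm40l over Tomm40), 0.482 to 0.670 (Timm17b over Timm17a) and 0.826 to 0.938 (Timm8b over Timm8a1), on the log2 scale. With upper-quartile scaling 6 members were higher and 4 lower, 3 partners were lower, all genes split 4563 to 3097, and the medians were 0.0312 (outer), 0.0882 (intermembrane) and -0.0369 (inner). With library size only the intermembrane and inner medians were 0.0224 and -0.102. With the GC and length trend removed 3 members were higher and 9 lower, 5 partners were higher, the outer and inner medians were -0.193 and -0.185 (-0.194 and -0.186 with the replicate block added) and Timm17b over Timm17a was 0.827 (0.828 with the block). Counting Timm10b with the inner membrane gave -0.146 for the intermembrane space and -0.101 for the inner membrane, and counting Tomm34 with the outer membrane gave -0.134 there. The cause of these shifts was not tested.

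Members near 0 changed sign. Tomm5 was at -0.0017 with DESeq2, -0.0020 with the replicate block, -0.106 with the GC and length trend removed (-0.114 with the block) and -0.122 to 0.0844 with 1 library left out, including -0.0276 and -0.0302 without Adv-NC replicates 1 and 3. Tomm70a was at 0.0904 with upper-quartile scaling, 0.0260 with library size only, and 0.0455, 0.0033 and 0.0227 without Adv-NC replicate 1, Adv-ABHD11 replicate 1 and Adv-ABHD11 replicate 2 (-0.0891 to 0.0455 with 1 library left out). Timm29 (0.0054) and Timm44 (0.0544) turned positive with upper-quartile scaling, and Timm9 was at -0.0309 and -0.0310 with the GC and length trend removed, without and with the block.

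The sources do not say whether replicate numbers pair the libraries, and 3 libraries an arm cannot settle it. Deviations of same-numbered libraries correlated at 0.0106, 0.205 and -0.104. The value for replicate 2 was the highest between the arms, and libraries numbered 1 and 3 correlated better with another number. With the replicate block Timm10b (edgeR adjusted p = 0.0351), Timm23 (0.0340) and Tomm22 (0.0440) also passed, so that 6 members were higher and 8 lower, and all genes split 3933 to 3907. With 3 libraries an arm, the exact permutation test on the paralog ratios cannot give a p below 0.1. One count was worth 0.0492 to 0.0614 CPM, which limits what could be seen for Timm8a2 and Tomm20l.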
